A study of Mus musculus with 7 samples.

Results

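Major urinary proteins (MUPs) are small secreted lipocalins that the mouse liver makes in large amounts. They pass from the blood into the urine, where they carry volatile pheromones and act as scent signals themselves. Their genes lie in a cluster of close paralogs, and male liver transcribes them more than female liver because growth hormone reaches it in pulses that activate the transcription factor STAT5B. Glucocorticoids, thyroid hormone and androgens also raise their transcripts.
The transcripts described here are those read by every probe set whose annotated symbol begins with Mup and a digit, 4 of the 35556 probe sets of the array. Mup3, Mup5 and Mup21 each have a probe set with that symbol alone. The other probe set has 5 symbols, the genes Mup6 and Mup16, the loci Mup-ps12 and Mup-ps15 named as pseudogenes, and the predicted gene Gm21286, so it cannot be assigned to 1 gene. The reference annotation lists 22 numbered Mup genes on chromosome 4. The other 17 have no probe set in the platform annotation used, so no result here is for any of them by name. In the order of that annotation Mup6 is gene 2 of the cluster, Mup16 gene 15, Mup5 gene 19, Mup3 gene 21 and Mup21 gene 22. Near-identical paralogs could contribute signal to any of these probe sets, and which of them do was not tested.
Livers came from 3 Trpm6-deficient and 4 control male littermates on a C57BL/6 background, each hybridized to 1 array. The mutants were Trpm6Δ17/Δ17;Sox2-Cre mice, in which exon 17 of the Mg2+ channel kinase gene Trpm6 is deleted, and Trpm6-deficient 1 and 3 were 13 weeks old and Trpm6-deficient 2 was 12 weeks old. The controls were Trpm6+/fl mice, which carry 1 floxed allele, and controls 1 and 2 were 12 weeks old and controls 3 and 4 were 13 weeks old. Sox2-Cre recombines in the epiblast, from which all tissues of the body derive, so the deletion is not specific to the liver, and RNA was taken from whole liver tissue of the left lobe.
The upstream sequences of the Mup genes are shown first, because the members were lower together in the mutants and because these sequences show how closely the genes are related. The RefSeq promoter table (build GRCm38.p6) held 3 of the 5 numbered genes that the members read, and the 250 bases before the annotated start of each are printed, 5′ to 3′ on the strand of the gene. Mup21 lies on the minus strand (chr4:62150842-62151091), Mup3 on the minus strand (chr4:62087318-62087567) and Mup6 on the plus strand (chr4:60003231-60003480). Capitals mark the matches to the motifs searched, which were all ATTGAT, the core of the HNF6 motif, on either strand, apart from TATAAA in Mup6.
Mup21: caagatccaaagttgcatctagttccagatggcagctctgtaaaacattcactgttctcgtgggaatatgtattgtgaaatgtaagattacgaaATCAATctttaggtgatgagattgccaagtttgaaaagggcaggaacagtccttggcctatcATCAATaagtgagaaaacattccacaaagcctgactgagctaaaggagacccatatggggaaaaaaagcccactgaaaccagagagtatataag
Mup3: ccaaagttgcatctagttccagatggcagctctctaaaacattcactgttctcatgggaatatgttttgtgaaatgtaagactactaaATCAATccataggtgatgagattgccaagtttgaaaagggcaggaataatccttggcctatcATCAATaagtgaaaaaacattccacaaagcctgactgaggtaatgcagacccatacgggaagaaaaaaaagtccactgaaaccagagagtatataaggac
Mup6: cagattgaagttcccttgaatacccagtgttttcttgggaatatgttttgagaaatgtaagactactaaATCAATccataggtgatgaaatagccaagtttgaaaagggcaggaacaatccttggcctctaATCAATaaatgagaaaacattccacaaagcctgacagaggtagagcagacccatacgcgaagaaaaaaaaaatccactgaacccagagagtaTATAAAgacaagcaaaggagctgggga
Mup21 and Mup3 shared 89.5% of the aligned positions of these windows, Mup6 and Mup3 77.3%, and Mup6 and Mup21 72.4%. The HNF6 core stood in each of the 3 windows at 2 places, at bases -156 and -94 from the start in Mup21, at -162 and -100 in Mup3 and at -181 and -119 in Mup6. It was present in the windows of all 14 numbered Mup genes in the table, against 6.72% of the 32851 promoter windows of the same length. The 14 are paralogs and are not independent. Pairs of their windows shared from 44.9% (Mup7 and Mup21) to 97.6% (Mup15 and Mup17) of the aligned positions. The 3 windows held no match, on either strand, to the STAT5 motif TTCNNNGAA (7.02% of all windows), the C/EBP motif TTGCNNAA (9.56%), the FOXA motif TGTTTAC (3.17%), the HNF4 motif CAAAGTCCA (0.384%), the D-box TTANNTAA (5.43%), the palindromic HNF1 motif (0.00913%) or the palindromic element of the glucocorticoid and androgen receptors (0.00913%). TATAAA, held by 12.4% of all windows, matched in Mup6 and not in Mup3 or Mup21, which read TATAAG after the same gagagta. The annotated starts of Mup3 and Mup21 lie closer to this place than that of Mup6, which shifts the positions counted from the start. No match overlapped another.

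All 4 Mup probe sets were lower in each Trpm6-deficient liver than in every control liver, but none passed the test over the whole array. The test was limma on the deposited log2 values, with Benjamini-Hochberg adjustment over all probe sets and a threshold of 0.1. SE stands for the standard error of a log2 change. By it 0.0534% of all probe sets fell and 0.0759% rose.
Mup21 showed the lowest log2 change of the Mup probe sets. Its log2 value was 8.85, 8.04 and 6.65 in Trpm6-deficient 1, 2 and 3, against 9.96, 10.06, 9.68 and 9.94 in controls 1 to 4. The groups did not overlap, and Trpm6-deficient 3 lay more than a log2 unit below the other mutants. The means were 7.85 ± 1.11 (SD, n = 3) in Trpm6-deficient and 9.91 ± 0.16 (SD, n = 4) in control livers. The log2 change was -2.06 (SE 0.48, 95% confidence interval -3.22 to -0.90, adjusted p = 0.415 from limma), a 4.18-fold lower level. By the size of its log2 change Mup21 was number 13 from the lowest of all 35556 probe sets, and by its p-value it was number 378.
Mup5 had log2 values of 7.21, 6.65 and 6.23 in Trpm6-deficient 1, 2 and 3, against 7.75, 7.77, 7.35 and 7.79 in controls 1 to 4. Control 3 was the low one of the controls, yet the groups did not overlap. The means were 6.70 ± 0.49 (SD, n = 3) in Trpm6-deficient and 7.67 ± 0.21 (SD, n = 4) in control livers, a 1.96-fold lower level. The log2 change was -0.97 (SE 0.24, 95% confidence interval -1.54 to -0.39, adjusted p = 0.437 from limma).
Mup3 had log2 values of 13.75, 13.31 and 12.69 in Trpm6-deficient 1, 2 and 3, against 13.97, 13.88, 13.79 and 13.91 in controls 1 to 4. Trpm6-deficient 1 lay just below control 3, so the groups were apart by less than the SD of the controls. The means were 13.25 ± 0.53 (SD, n = 3) in Trpm6-deficient and 13.89 ± 0.08 (SD, n = 4) in control livers, a 1.56-fold lower level. The log2 change was -0.64 (SE 0.23, 95% confidence interval -1.20 to -0.08, adjusted p = 0.673 from limma).
The probe set of Mup6, Mup16 and the related loci had log2 values of 11.04, 11.38 and 9.37 in Trpm6-deficient 1, 2 and 3, against 12.15, 12.25, 11.81 and 12.03 in controls 1 to 4. The groups did not overlap, and here Trpm6-deficient 2 was the highest mutant. The means were 10.60 ± 1.08 (SD, n = 3) in Trpm6-deficient and 12.06 ± 0.19 (SD, n = 4) in control livers, a 2.76-fold lower level. The log2 change was -1.46 (SE 0.47, 95% confidence interval -2.59 to -0.33, adjusted p = 0.631 from limma).
At a nominal (unadjusted) limma p of at most 0.05 all 4 were lower, against 3.03% of all probe sets. The groups were apart with the mutants lower in all 4, against 2.38% of all probe sets. The members share sequence and livers, so these are not 4 independent results. Their median log2 change was -1.22 (-0.79 without Trpm6-deficient 3), and that of all probe sets was 0.00.

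**Figure D1:**
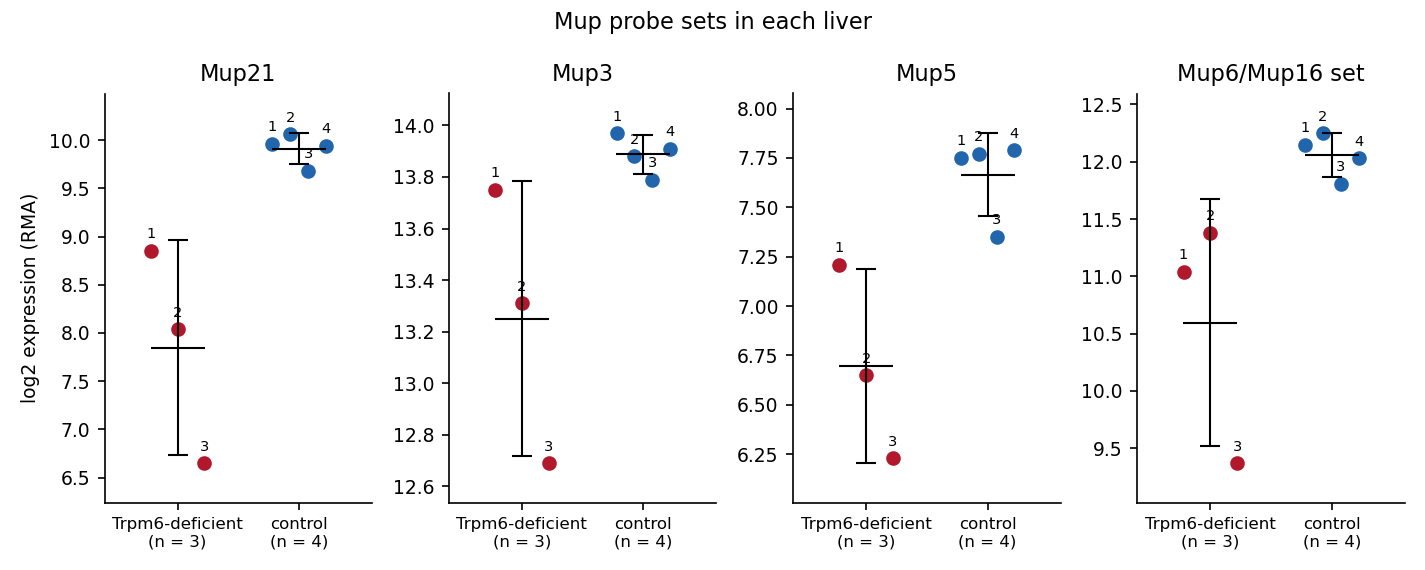
Log2 expression (y axis, RMA) of the 4 Mup probe sets, each on its own scale, with 1 numbered point per liver, a line at each mean and bars of 1 SD. In each panel the 3 Trpm6-deficient livers lie below the 4 controls, and Trpm6-deficient 3 is the lowest.

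The mutants differed among themselves far more than the controls. The SD of Mup21 was 6.87 times as large in Trpm6-deficient as in control livers, and it was 7.10 times as large for Mup3, 5.68 times for the Mup6 and Mup16 set and 2.33 times for Mup5. These ratios come from 3 and 4 values and were not tested. Limma pools the spread of both groups, so its SE, confidence intervals and p-values for the Mup probe sets assume an equal spread. No test that allows unequal spread was run. The SD of Mup21 among the mutants exceeded that of 99.5% of all probe sets, while its SD among the controls exceeded that of 61.2%.
Trpm6-deficient 3 was the lowest mutant for all 4 probe sets, against 46.0% of the 1076 probe sets that were lower at a nominal p of at most 0.05. There Mup21 was 9.58-fold below the control mean, the Mup6 and Mup16 set 6.45-fold, Mup5 2.70-fold and Mup3 2.29-fold. In Trpm6-deficient 1 the same values were 2.08-fold, 2.03-fold, 1.37-fold and 1.10-fold. Without Trpm6-deficient 3 the log2 change was -1.47 for Mup21, -0.85 for the Mup6 and Mup16 set, -0.74 for Mup5 and -0.36 for Mup3. For Mup3 and the Mup6 and Mup16 set this liver thus moved the value by more than 1.5 times. Without it limma's adjusted p was 0.360 for Mup21, 0.429 for the Mup6 and Mup16 set, 0.709 for Mup5 and 0.835 for Mup3.
Control 3 was the lowest control for all 4 probe sets, against 20.6% of all probe sets. Averaged over the 4 it lay 0.22 log2 units below the control mean, where Trpm6-deficient 1, 2 and 3 lay 0.67, 1.04 and 2.15 below it.
The 3 single genes stood in the order Trpm6-deficient 1, 2 and 3 from high to low, whereas in the Mup6 and Mup16 set Trpm6-deficient 2 stood above 1. Within the groups, taken as deviations from the group means over the 7 livers, Mup21 correlated with Mup3 at r = 0.99 and with Mup5 at r = 0.92. The Mup6 and Mup16 set correlated with Mup21 at r = 0.87, with Mup3 at r = 0.83 and with Mup5 at r = 0.71. These are descriptions in which the low values of Trpm6-deficient 3 weigh most.
The size of the change was compared between the genes by the difference of 2 log2 values within each liver. The probe sets lie at different heights of the intensity scale, and the part of that or of signal from paralogs in these differences was not tested. Mup21 minus Mup3 was -4.90, -5.27 and -6.04 in Trpm6-deficient 1, 2 and 3, against -4.01, -3.82, -4.11 and -3.97 in controls 1 to 4. The groups did not overlap, and the log2 change of Mup21 was lower than that of Mup3 by 1.43. The log2 change of Mup21 was also lower than that of Mup5 by 1.10 (1.64, 1.39 and 0.42 in Trpm6-deficient 1, 2 and 3, against 2.21, 2.29, 2.33 and 2.15 in controls 1 to 4). The difference of Mup3 minus Mup5 was 0.33 (6.54, 6.66 and 6.46 in Trpm6-deficient, against 6.22, 6.11, 6.44 and 6.12 in control livers) and its groups came close to each other. For each of the 3 pairs the exact two-sided permutation test over the livers gave p = 0.0571 (0.0571 after adjustment over the 3 pairs), which is the smallest that the 35 splits of 3 and 4 livers allow, so that the test could not reach 0.05.
The cluster also holds 7 probe sets annotated to Mup-ps12, Mup-ps15 or Gm21286 without a numbered Mup gene, of which 2 have identical values on all arrays and count as 1 profile. They were lower as well, with log2 changes of -1.82 to -0.94 and a median of -1.35. None passed limma's test (adjusted p = 0.597 to 0.750), and 6 of the 7 were lower at a nominal p of at most 0.05, against 3.03% of all probe sets. For all 7 the groups did not overlap, with the mutants lower, against 2.38% of all probe sets. These 7 share loci and livers with each other and with the Mup6 and Mup16 set, so they are not independent results. In all 7 the order of the mutants was Trpm6-deficient 2, 1 and 3 from high to low, as in the Mup6 and Mup16 set, with which they share annotated loci, and that order was found in 23.0% of the probe sets lower at a nominal p of at most 0.05.

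**Figure D2:**
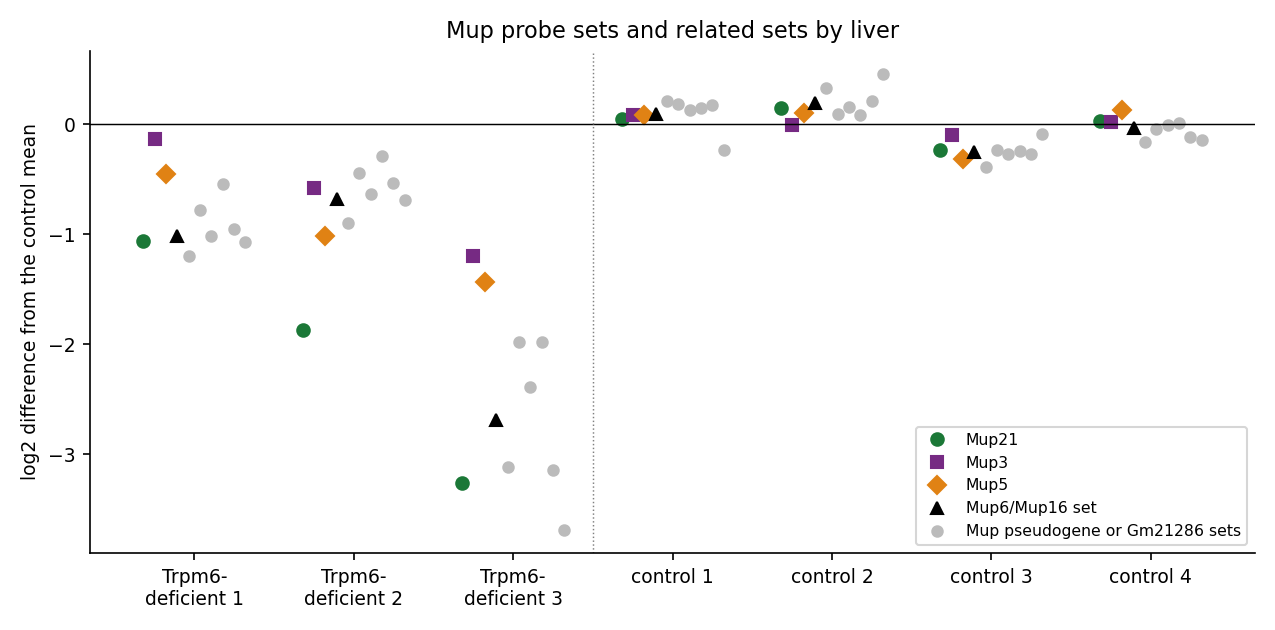
Log2 difference from the control mean (y axis) in each liver (x axis) for the 4 Mup probe sets (coloured symbols) and the 6 distinct profiles of the related probe sets (grey). All points of the mutants lie below 0, and in Trpm6-deficient 3 they lie at -1.20 or lower.

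The tissue was checked against cell type markers. Over 6 of hepatocytes (albumin, transthyretin and others) the mean log2 value per liver was 13.69 to 13.79 in Trpm6-deficient and 13.62 to 13.75 in control livers, which is the level of a liver sample. None passed limma's test, and Asgr1 was higher at a nominal p of at most 0.05 (log2 change 0.22). In bulk tissue, fewer cells of a type and less RNA per cell cannot be told apart. Over 19 probe sets of abundant secreted hepatocyte proteins other than MUPs the log2 changes lay between -0.06 and 0.18, with a median of 0.03. None passed, and albumin, transthyretin and Apoa1 are in both this list and the hepatocyte markers. Apoa2 and Apoc3, apolipoprotein genes, were higher at a nominal p of at most 0.05 (log2 changes 0.16 and 0.18).
Other cell types gave mean levels of 8.97 to 9.03 in Trpm6-deficient and 8.74 to 9.61 in control livers for 5 Kupffer cell markers, and of 8.93 to 9.32 in Trpm6-deficient and 8.72 to 9.59 in control livers for 5 markers of sinusoidal endothelial cells. For 5 stellate cell markers they were 9.46 to 9.63 in Trpm6-deficient and 9.27 to 9.56 in control livers, with Des and Reln higher at a nominal p of at most 0.05, and for 4 cholangiocyte markers 6.94 to 7.11 in Trpm6-deficient and 6.86 to 6.94 in control livers, with Krt19 higher. For 4 markers of T and B cells they were 6.06 to 6.12 in Trpm6-deficient and 5.79 to 6.40 in control livers. Of the erythroid markers only Alas2, the haem synthesis gene of red cell precursors, was measured, at 8.85 to 9.95 in Trpm6-deficient and 10.72 to 11.17 in control livers (adjusted p = 0.192 from limma). The part of these cell types in the Mup result was not tested. Trpm6 itself read 5.46 ± 0.08 (SD, n = 3) in Trpm6-deficient and 5.51 ± 0.01 (SD, n = 4) in control livers, and since the exons its probe set reads are not known this checks no label. The array medians lay between 6.43 and 6.48.

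Regulators of Mup transcription or of the growth hormone pattern were compared next. Of 34 probe sets for 30 regulators none passed limma's test. At a nominal p of at most 0.05, 2 were higher, both of them probe sets of Ppargc1a, against 3.85% of all probe sets, and 3 were lower, against 3.03%. The log2 changes lay between -1.16 and 0.94, with a median of -0.10. Growth hormone binds its receptor, Ghr, which read 12.63, 12.55 and 12.35 in Trpm6-deficient 1, 2 and 3, against 12.65, 12.73, 12.69 and 12.72 in controls 1 to 4. The groups were barely apart, and the log2 change was -0.19 (SE 0.07, adjusted p = 0.699 from limma). Jak2, the kinase bound to the receptor, had a log2 change of 0.03 (95% confidence interval -0.07 to 0.13).
Stat5b, the factor that the pulses activate in male liver, read 10.21, 9.93 and 9.65 in Trpm6-deficient 1, 2 and 3, against 9.95, 10.05, 9.56 and 9.91 in controls 1 to 4. Its groups overlapped throughout, and the log2 change was 0.06 (95% confidence interval -0.35 to 0.46). Stat5a, its close relative, had a log2 change of 0.03 (95% confidence interval -0.13 to 0.20). These are transcript levels, and the activity of STAT5B by phosphorylation was not measured.
Among genes that STAT5 induces as feedback inhibitors, Socs2 had log2 changes of -0.34 and -0.64 in its 2 probe sets (adjusted p = 0.881 and 0.868 from limma). Cish had one of -0.02 (SE 0.54), and control 4, at 9.54, stood far above controls 1 to 3, at 7.62 to 7.74.
Bcl6, a repressor higher in male liver, read 9.77, 8.47 and 7.06 in Trpm6-deficient 1, 2 and 3, against 9.07, 10.20, 10.17 and 7.37 in controls 1 to 4. Its mutants stood in the order of the 3 single Mup genes, but control 4 lay below Trpm6-deficient 2, and the log2 change was -0.77 (SE 0.90, adjusted p = 0.907 from limma). Cux2, a repressor specific to female liver, had a log2 change of 0.21 (95% confidence interval -0.02 to 0.43, adjusted p = 0.770 from limma).
Onecut1 encodes HNF6, the factor whose core motif stood in the Mup windows. It read 8.03, 10.84 and 10.17 in Trpm6-deficient 1, 2 and 3, against 10.32, 9.62, 9.63 and 11.42 in controls 1 to 4. Its lowest liver was Trpm6-deficient 1 and its highest mutant Trpm6-deficient 2, and the groups overlapped (log2 change -0.57, SE 0.77, adjusted p = 0.920 from limma). The part of Onecut1, or of any other regulator, in the Mup result was not tested.
Hnf4a, a factor that maintains hepatocyte genes, had a log2 change of 0.01 (95% confidence interval -0.44 to 0.45). Nr3c1, the glucocorticoid receptor gene, had one of -0.10 (95% confidence interval -0.26 to 0.06), and Zhx2, a homeobox gene known to control Mup genes in mouse liver, had one of -0.10 (95% confidence interval -0.58 to 0.39).
For Cebpa, another factor of hepatocyte genes, the log2 change was -0.42 (SE 0.13, adjusted p = 0.603 from limma), and Insr, the insulin receptor gene, had one of -0.12 in the lower of its 2 probe sets (adjusted p = 0.712). Ppargc1a, a coactivator induced by fasting, had log2 changes of 0.94 and 0.88 in its 2 probe sets (adjusted p = 0.562 and 0.692).
The genes next to the cluster gave a comparison by position. Of the 10 nearest measured genes, 5 on either side, none passed limma's test, the log2 changes lay between -0.21 and 0.23, and the median was 0.03. Snx30, a sorting nexin gene, was the 1 lower at a nominal p of at most 0.05 (log2 change -0.21, adjusted p = 0.585), against 3.03% of all probe sets.

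The other lipocalins share the fold of the MUPs. None of 21 measured passed limma's test. At a nominal p of at most 0.05, 4 were higher, against 3.85% of all probe sets, and 1 was lower, against 3.03%. The median log2 change was 0.02. Rbp4, the retinol carrier of plasma, read 14.14 to 14.16 in Trpm6-deficient and 14.05 to 14.13 in control livers, and Ambp, the precursor of alpha-1-microglobulin, 13.64 to 13.65 in Trpm6-deficient and 13.64 to 13.69 in control livers.
Lcn2, an iron-siderophore-binding lipocalin of the acute phase, read 9.32, 10.71 and 10.88 in Trpm6-deficient 1, 2 and 3, against 8.59, 7.95, 8.90 and 8.06 in controls 1 to 4. The groups did not overlap, with the mutants higher, as in 2.94% of all probe sets, and the log2 change was 1.93 (SE 0.43, adjusted p = 0.389 from limma). Orm3 and Orm2, acute phase orosomucoid genes, were in the same direction, with log2 changes of 1.67 (SE 0.34, adjusted p = 0.351) and 1.54 (SE 0.63, adjusted p = 0.724). Orm2 read 10.33, 9.44 and 12.32 in Trpm6-deficient 1, 2 and 3, against 9.15, 9.35, 9.19 and 8.93 in controls 1 to 4. The liver lowest for all 4 Mup probe sets was thus the highest for Orm2. For Orm3 the highest mutant was Trpm6-deficient 2, at 8.31, with Trpm6-deficient 3 at 8.24 and Trpm6-deficient 1 at 7.02. Orm1 had a log2 change of -0.01 (95% confidence interval -0.20 to 0.18).
For Ptgds, a prostaglandin synthase of the lipocalin family, the log2 change was 0.48 (SE 0.11, adjusted p = 0.393 from limma). For Obp2a, an odorant-binding gene, it was -1.13 (SE 0.42, adjusted p = 0.677), at 5.04 to 5.74 in Trpm6-deficient and 6.00 to 7.47 in control livers. Lrp2, the kidney receptor megalin that takes up filtered proteins, had a log2 change of -0.16 in liver (adjusted p = 0.835).

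**Figure D3:**
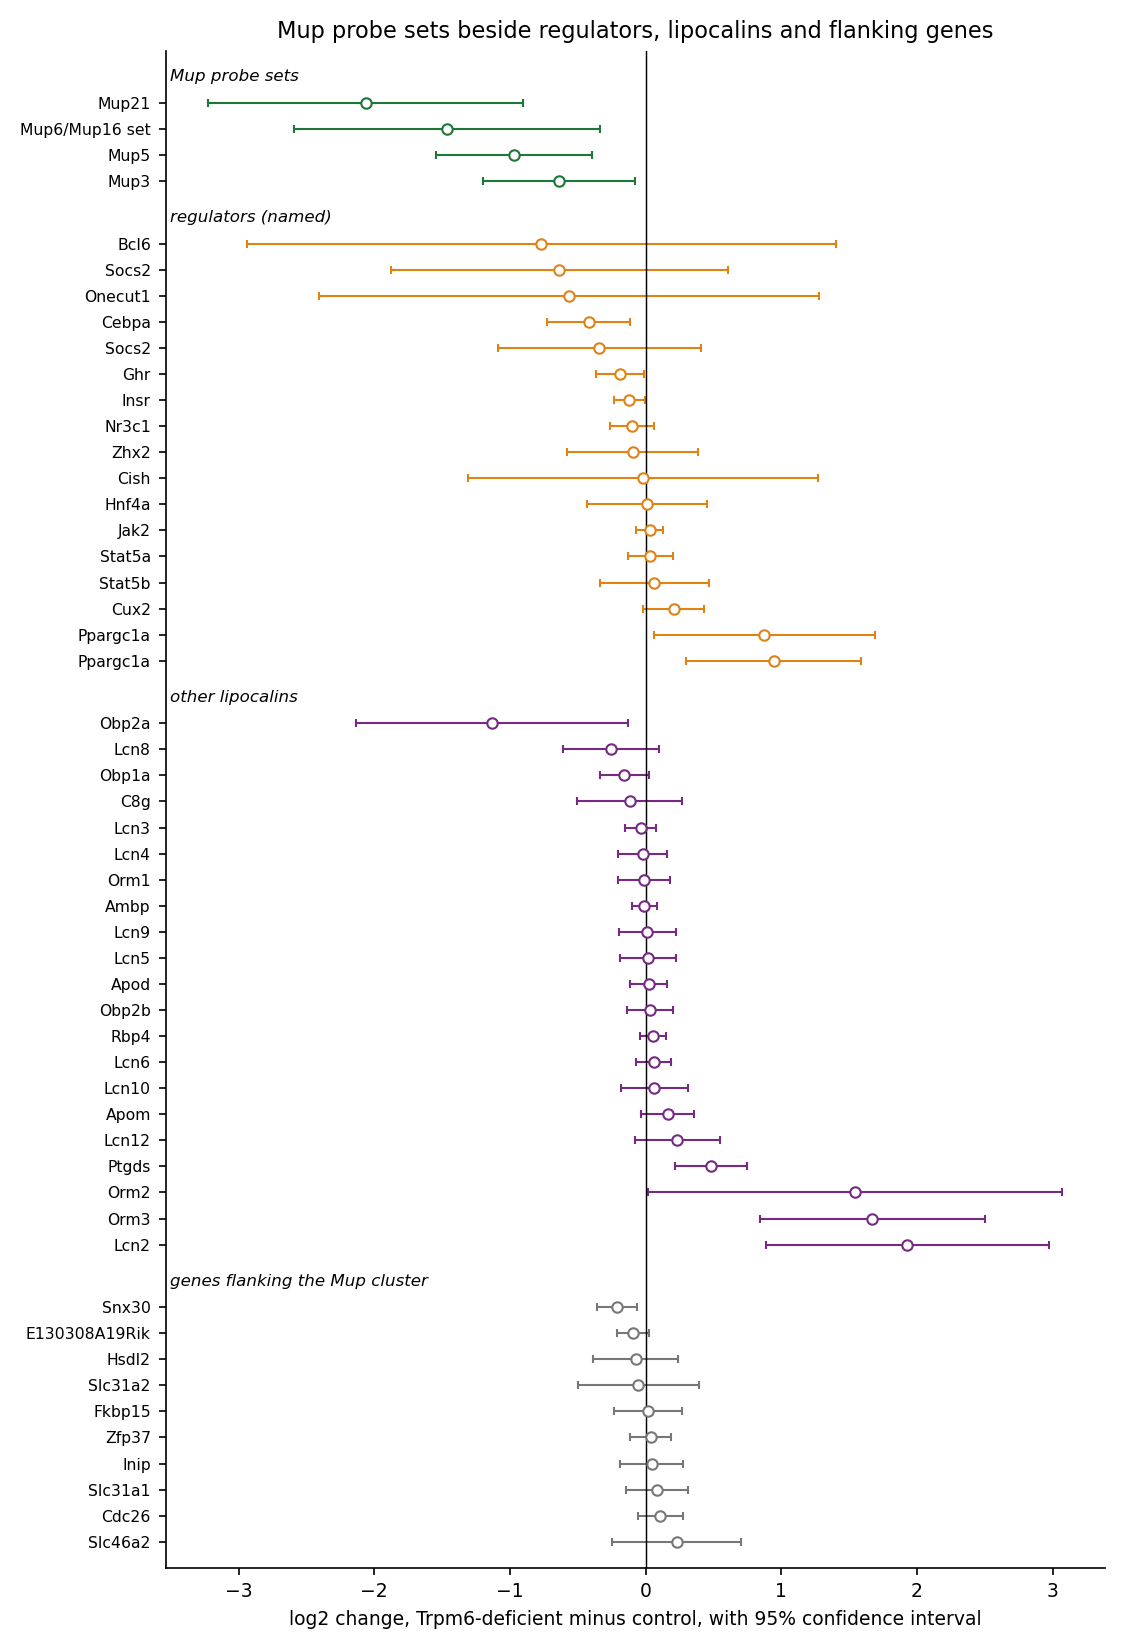
Log2 change (x axis, Trpm6-deficient minus control) with the 95% confidence interval from limma for the 4 Mup probe sets, named regulators, other lipocalins and the genes flanking the cluster, with 1 row per probe set and open points for those that did not pass at an adjusted p of 0.1. The Mup log2 changes lie between -2.06 and -0.64, and their intervals lie below 0, from -3.22 to -0.08. The log2 changes of the flanking genes lie between -0.21 and 0.23. Among their intervals only that of Snx30 lies wholly below 0, and the others include 0.

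Genes of male-biased liver expression were set beside the Mup genes, which male liver also transcribes more than female liver. The part of growth hormone in either result was not tested. Of 16 such genes 6 fell and 10 did not pass limma's test, and all 16 were lower at a nominal p of at most 0.05 (3.03% of all probe sets) with no overlap of the groups (2.38% of all probe sets). Their median log2 change was -2.11. The list was written with results of these data known, so these counts and the median describe the chosen genes and are no independent evidence. Hsd3b5, Cyp7b1 and Cyp2u1, genes of steroid and fatty acid metabolism, and C6, Selenbp2 and Egfr were the 6 that fell. Elovl3, Cyp4a12a, Cyp4a12b, Slco1a1, Serpina12, Nudt7, Ugt2b38, Gstp1, Ugt2b1 and Cyp2d9 did not pass. Hsd3b5, a steroid dehydrogenase gene, had the lowest log2 change, -6.01, and Cyp2d9, a steroid hydroxylase gene, the highest, -0.77 (adjusted p = 0.366 from limma). The log2 change of Mup3, -0.64, was smaller in size than that of each of the 16.
Trpm6-deficient 3 was the lowest mutant in 10 of the 16, and 6 of the 16 had the order Trpm6-deficient 1, 2 and 3 of the single Mup genes. Control 3 was the lowest control in 8 of the 16. Cyp4a12a, a fatty acid hydroxylase gene, followed the Mup pattern closely, at 11.12, 9.65 and 7.77 in Trpm6-deficient 1, 2 and 3, against 13.10, 13.21, 12.87 and 13.16 in controls 1 to 4. Its deviations from the group means correlated with those of the Mup mean at r = 0.97 over the 7 livers. For C6, a complement gene that passed the test at a log2 change of -2.55 (adjusted p = 0.0788 from limma), this r was 0.24. For Egfr, a growth factor receptor gene (log2 change -1.48, adjusted p = 0.0474), it was 0.19. C6 read 10.27, 8.96 and 9.64 in Trpm6-deficient 1, 2 and 3, so the mutants did not stand in one order for all male-biased genes.

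**Figure D4:**
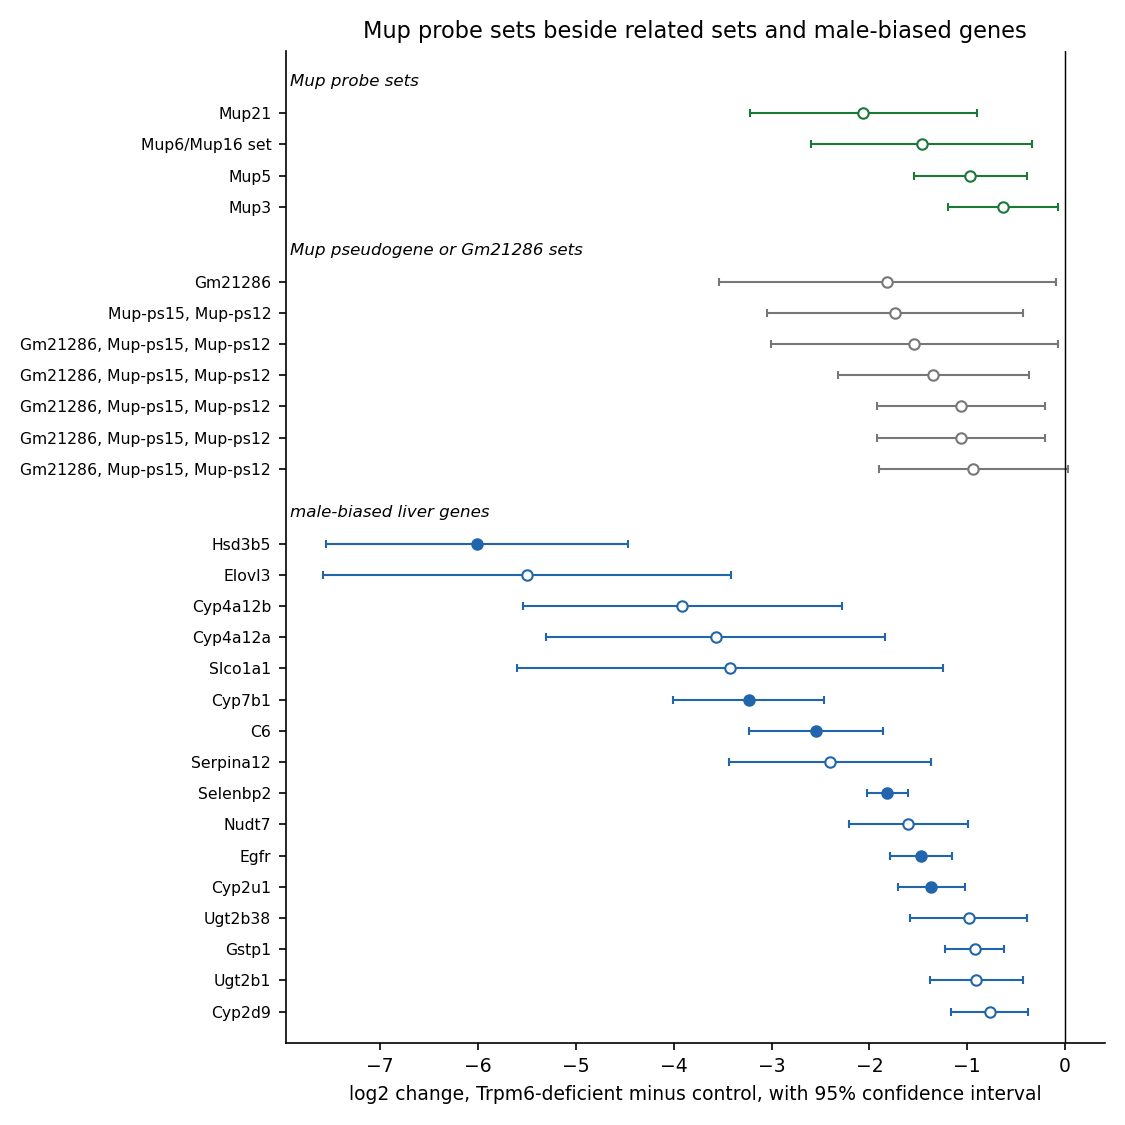
Log2 change (x axis, Trpm6-deficient minus control) with the 95% confidence interval from limma for the 4 Mup probe sets, 7 related probe sets and 16 male-biased genes, with filled points where the adjusted p was at most 0.1 and open points above it. All points lie below 0, those of the Mup probe sets at -2.06 to -0.64 and those of the male-biased genes at -6.01 to -0.77.

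Among probe sets with a single gene symbol outside the family, the 5 most like the Mup genes were taken by Pearson's r with the mean of the 4 Mup probe sets over the 7 livers. They were Ces3a (r = 0.99), Ugt2b1 (r = 0.99), Ces3b (r = 0.99), Cyp4a12a (r = 0.99) and Phyh (r = 0.98). The points share the difference between the groups, and the genes were picked for a high r in these same livers, so the r within the groups, 0.96 to 0.98 for the 5, is part of that choice. Ces3a, a carboxylesterase gene, read 13.15, 12.75 and 12.05 in Trpm6-deficient 1, 2 and 3, against 13.53, 13.66, 13.47 and 13.56 in controls 1 to 4. Its groups did not overlap, with the mutants lower, as in 2.38% of all probe sets. Trpm6-deficient 3 and control 3 were the lowest of their groups, as for the Mup genes. Both features are part of the same choice and are no further evidence. The log2 change was -0.91 for Ces3a (adjusted p = 0.514 from limma), -0.91 for Ugt2b1, a glucuronosyltransferase gene (adjusted p = 0.379), and -0.94 for Ces3b, the neighbouring carboxylesterase (adjusted p = 0.389). Phyh, a gene of phytanic acid oxidation in peroxisomes, had the smallest of the 5, -0.24 (adjusted p = 0.672).

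**Figure D5:**
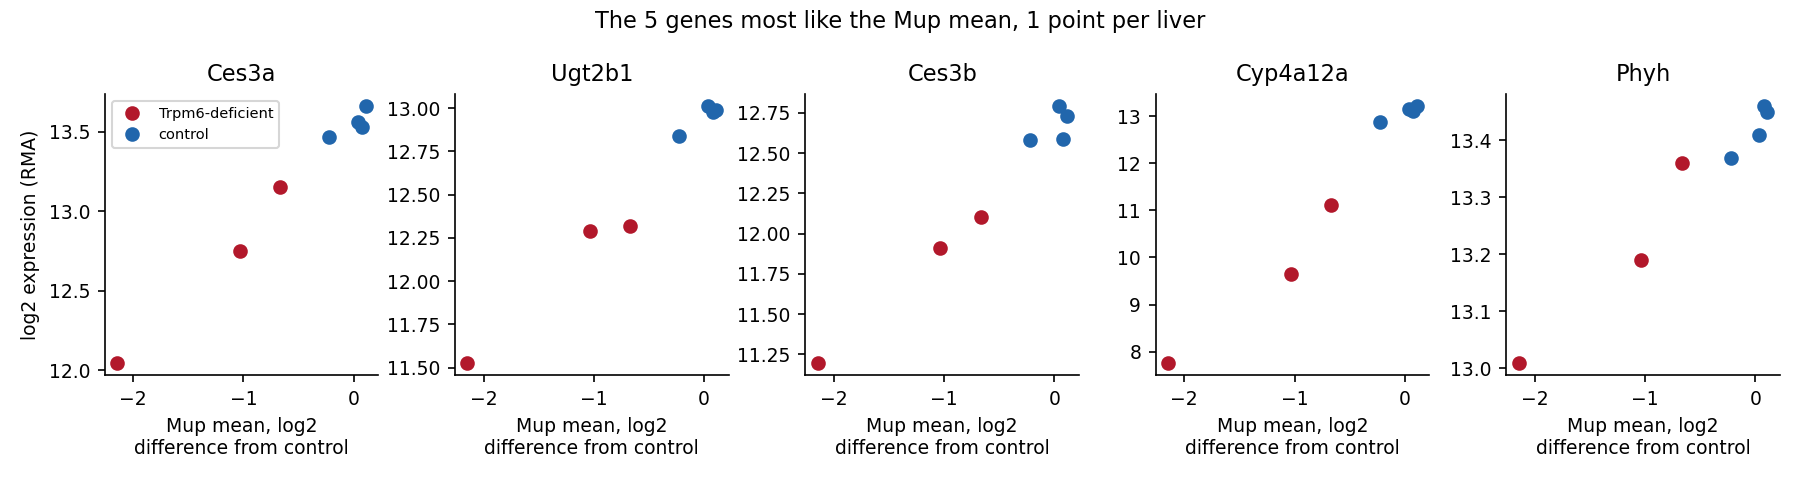
Log2 expression (y axis, RMA) of the 5 genes most like the Mup mean against the mean log2 difference of the 4 Mup probe sets from the control mean (x axis), with 1 point per liver (red, Trpm6-deficient; blue, control). Trpm6-deficient 3, at -2.15 on the x axis, is the lowest liver in every panel.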

How the data were processed

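Liver RNA of 3 Trpm6-deficient and 4 control mice was measured on Affymetrix GeneChip Mouse Gene 1.0 ST arrays, 1 per mouse. The authors corrected the background, normalized between arrays and summarized the probes of each set by RMA in Affymetrix Expression Console 1.4.0 (names from the processing notes of the submitters). The deposited log2 values have 2 decimals. RMA scaling makes values relative to the whole array, and a difference between probe sets in level is not a difference in RNA. Scanner files were not used here.
The deposited log2 values were fitted with limma 3.58.1 in R 4.3.3, without covariate or filter, over all 35556 probe sets, with Benjamini-Hochberg adjustment and the threshold of 0.1 that the study's methods give. The fit was tested on simulated data with the same spread in both groups, so that test does not cover the unequal spread seen for the Mup probe sets. Confidence intervals (95%) are per probe set and unadjusted, and assume the same spread in both groups. Differences between Mup genes were tested with an exact permutation test in scipy 1.17.1. The number of arrays limits the precision.
The platform annotation named the genes, with 1 symbol for 21789 probe sets, several for 1621 and none for 12146. The symbols of the Mup probe sets matched the reference annotation by identifier. Every Mup probe set was named, as were listed genes at a nominal p of at most 0.05, 12 set regulators and the 5 most correlated genes. For flanking genes, those with a probe set of their own were counted. The members, lists and motifs were chosen with earlier results of these data known. Upstream windows came from RefSeq, and identity was computed by global alignment in Biopython 1.88. The alternatives tried were age as a covariate, the replicate number as a block, a trended and robust prior, median centring and quantile normalization. A filter on dim probe sets, an ordinary t-test with pooled variance, other thresholds and leaving out each liver were also tried.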

Additional observations from a re-analysis of the deposited data

Results flagged for a closer look

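Mup5 was at 7.35 in control 3, far from the other controls at 7.75 to 7.79, which was the only such value among the 4 Mup probe sets. Control 3 was the lowest control for the other Mup probe sets too, by a smaller gap. Among the other named genes, Cyp2d9 was at 11.92 in control 3 and at 12.17 to 12.20 in the other controls. Zhx2 was at 8.21 in control 1 and at 8.64 to 8.68 in the others, and Cish was at 9.54 in control 4 and at 7.62 to 7.74 in the others. Nr3c1 was at 9.51 in control 2 and at 9.45 in the other 3, a gap of a few hundredths. Chance alone sets 1 sample apart in this way in about 1 of 20 groups, and 48 control groups were examined. The Trpm6-deficient group of 3 is too small for this rule.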

How the results depend on the processing

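The log2 changes of all 4 Mup probe sets stayed below 0 under each of the 14 alternatives tried for each of them, and none passed an adjusted p of 0.1 under any (lowest 0.190, for Mup5 without Trpm6-deficient 1). Mup21 ranged from -2.57 to -1.47, the Mup6 and Mup16 set from -1.86 to -0.85, Mup5 from -1.23 to -0.74 and Mup3 from -0.89 to -0.36, the extremes coming from leaving out 1 mutant. At a nominal p of at most 0.05 4 Mup probe sets were lower in place of 0. Mup3 missed that threshold with age as a covariate, by the ordinary t-test and without Trpm6-deficient 2 or any 1 control.
The number of probe sets called over the whole array was 46, and 7 to 69 when 1 liver was left out. It was 8 with age as a covariate and 8 by the ordinary t-test (1863 at an unadjusted 0.05, against 2444 by limma). At an adjusted p of 0.05 it was 14, and it was 70 when probe sets averaging under 5 were left out. With the replicate number as a block it was 1, and the log2 changes were -2.05 for Mup21 and -0.63 for Mup3. Same-numbered livers deviated together at r = 0.33, 0.26 and 0.09, and the labels do not say that a shared number marks a litter or batch, so the numbers were not taken as pairs. The differences between Mup genes kept their sign under quantile normalization and without each liver.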
